A study of Mus musculus with 16 samples.

Results

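The mitosis genes described here are 45 protein-coding genes whose products carry a mammalian cell through division, from the kinases that start mitosis to the proteins that cut the daughter cells apart. They were chosen by name and role, with earlier results of these data known, and all 45 were among the 16793 genes of the deposited table. By role they fell into 8 groups: the proliferation marker Mki67 with 2 transcription regulators (3 genes), cyclins and kinases (9), kinetochore and checkpoint (11), chromosomal passenger complex (4), spindle and kinesins (6), cytokinesis (6), anaphase-promoting complex and securin (3), and chromosome structure (3). Polyadenylated RNA was sequenced from livers of mice with induced primary liver cancer, collected at the end of the experiment and all labelled WT, in 4 groups of 4 libraries. OVX mice were females whose ovaries, the main source of circulating estrogen, had been removed, and Sham mice were females given sham surgery. LCAT mice overexpressed lecithin-cholesterol acyltransferase, which hepatocytes release into plasma, where it forms cholesterol esters on high-density lipoprotein, and Vec mice carried an empty vector. How the cancer was induced, the vector and its promoter, the ages, the sex of the mice in the vector experiment and the share of tumour in each piece of liver are given in none of the sources used here. The labels also do not say that the 4 libraries of a group came from separate animals, so the p-values measure only the spread between these libraries, which may be technical.

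As background, most liver cells of an adult are not dividing, and mitosis genes are then nearly silent, while dividing cells of a tumour or a regenerating liver transcribe them together late in the cycle. In resting cells the DREAM complex holds many of them down, and in dividing cells the MuvB core of that complex works with B-Myb, the product of Mybl2, and with FOXM1, the product of Foxm1, to switch them on. Much of this control is known to act through a short promoter element called CHR, with the letters TTTGAA, and through CCAAT boxes bound by the factor NF-Y. The anaphase-promoting complex ends mitosis by marking cyclin B and securin for destruction.

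These letters were common in the members' promoters, which are shown because they are what the members share beyond their roles. RefSeq gave a promoter, 250 bases before to 50 after the start on the build GRCm38.p6, for 37 of the 45 members. Read on both strands, TTTGAA was present in 26 of these 37 (70.3%), against 20.2% of the promoters of all 27025 genes and 14.8% of those of 10042 genes tested in the surgery experiment. CCAAT was present in 27 of 37 (73.0%), against 41.1% of all promoters and 43.0% of those of tested genes. Both were present in 23 of 37 (62.2%), against 7.97% and 6.02%. A pair of letter strings known as E2F sites, TTCCCGC or TTGGCGC, was present in 5 of 37 (13.5%), against 7.79% and 13.6%. A match is a description of letters and not of a bound site. Stretches of 150 bases, from 155 to 6 before the start, follow for some members with both TTTGAA and CCAAT and a high mean count. Both motifs are in capitals (TTCAAA and ATTGG are their reverse complements). Spc25, Cenpa, Aurka and Smc2 also held both motifs and had higher mean counts than Prc1, but are not shown. Mybl2, chosen after its values were seen, is shown as a promoter with neither.
Mki67, chr7:135716385-135716534, minus strand: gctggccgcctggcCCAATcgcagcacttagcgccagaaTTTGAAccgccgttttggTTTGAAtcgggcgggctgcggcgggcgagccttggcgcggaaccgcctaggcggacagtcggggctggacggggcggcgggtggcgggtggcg
Cdk1, chr10:69352918-69353067, minus strand: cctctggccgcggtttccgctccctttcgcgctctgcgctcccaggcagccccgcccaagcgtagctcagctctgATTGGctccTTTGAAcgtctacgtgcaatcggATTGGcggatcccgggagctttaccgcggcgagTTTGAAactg
Ube2c, chr2:164769774-164769923, plus strand: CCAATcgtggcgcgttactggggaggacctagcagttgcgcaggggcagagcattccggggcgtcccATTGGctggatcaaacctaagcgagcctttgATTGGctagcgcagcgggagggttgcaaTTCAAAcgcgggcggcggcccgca
Top2a, chr11:99024195-99024344, minus strand: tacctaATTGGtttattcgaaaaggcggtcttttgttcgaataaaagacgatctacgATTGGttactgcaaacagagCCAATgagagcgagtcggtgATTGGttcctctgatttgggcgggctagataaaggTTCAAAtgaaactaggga
Prc1, chr7:80294321-80294470, plus strand: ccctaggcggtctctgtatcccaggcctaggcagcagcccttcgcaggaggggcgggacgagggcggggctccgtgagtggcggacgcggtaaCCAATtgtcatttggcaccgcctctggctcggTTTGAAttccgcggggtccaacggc
Mybl2, chr2:163054480-163054629, plus strand: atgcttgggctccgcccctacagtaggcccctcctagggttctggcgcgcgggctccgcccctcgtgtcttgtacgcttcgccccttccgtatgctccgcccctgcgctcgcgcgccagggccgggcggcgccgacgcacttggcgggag
The TTTGAA nearest to the start began 98 bases before it in Mki67, 15 in Cdk1, 29 in Ube2c, 23 in Top2a and 30 in Prc1. From another RefSeq start of Prc1 it began 5 bases before. Of the 6 starts shown, 4 were found in a transcript of the GENCODE annotation, so these distances depend on the start used. Top2a held 4 CCAAT boxes in this stretch, Ube2c 3, Cdk1 2, and Mki67 and Prc1 1 each.

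The libraries held 17782178 to 27110501 recovered reads in OVX, 21428827 to 25850761 in Sham, 12562943 to 19248762 in LCAT and 14412808 to 20659336 in Vec. Lcat itself was lower in OVX (3637, 3458, 3399 and 3061 normalized counts) than in Sham (5714, 5656, 5578 and 5701), a log2 fold change of -0.74 (limma adjusted p = 0.000167). It was higher in LCAT (5014, 5074, 5106 and 4531) than in Vec (3348, 2926, 4521 and 2980), a log2 fold change of 0.54 (limma adjusted p = 0.0168), with LCAT library 4 close to Vec library 3. None of 14 hepatocyte markers was at 0 reads in all libraries of a group. In 3 groups, libraries 2 and 3 tended to lie between libraries 1 and 4. Of 656 genes that differed at least 2-fold between OVX libraries 1 and 4, 85.4% lay between these in both libraries 2 and 3, against at most 32.3% for any other pair of OVX libraries. The same share was 89.8% of 1296 genes in Sham and 90% of 2390 in LCAT, against at most 26.9% and 27.3% for other pairs, while all pairs of Vec gave 36.2% to 47.7%. These genes also averaged at least 50 normalized counts in their group. Among the members, counted with no cut-off on fold or level, 33 in OVX, 16 in Sham and 21 in LCAT had libraries 2 and 3 between libraries 1 and 4. For other pairs the most was 6 in OVX, 13 in Sham and 10 in LCAT, so the members showed this order only weakly in Sham. If libraries 2 and 3 are not independent of 1 and 4, the p-values of both comparisons are too small, so results are also given for libraries 1 and 4 alone.

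After ovariectomy the mitosis genes were higher nearly throughout. Of the 44 members tested, 40 rose in OVX livers and none fell, where 19% of all 13059 genes tested rose and 20.6% fell (limma, Benjamini-Hochberg adjusted p below 0.05). By edgeR 40 members rose, beside 2502 of all genes higher and 2647 lower. By DESeq2 42 members rose, beside 2758 of all genes higher and 2968 lower. Neither called a member lower, nor did limma at an unadjusted p below 0.05, which 6493 of the 13059 genes passed in either direction. The members' median log2 fold change was 3.27, against 0.0032 over all genes tested. With a log2 fold change of at least 1 required as well, 39 members rose, against 1000 of the 13059 genes. On the log2(value + 1) scale, 33 members rose at least 4-fold, 28 at least 8-fold and 13 at least 16-fold. All genes were not counted at these higher cut-offs. In 41 of all 45 members every OVX library was above every Sham library, against 18.9% of all genes tested. In such bulk libraries, more dividing cells and more of these transcripts per cell cannot be told apart. With OVX libraries 1 and 4 against Sham libraries 1 and 4 alone, the median was 3.43 and 38 members were higher at an unadjusted p below 0.05. The share of all genes at that unadjusted p was not counted. Neither a member nor any other gene passed the adjusted threshold by limma. This smaller fit, on libraries that tended to lie at the ends of their group, has little power.

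**Figure D1:**
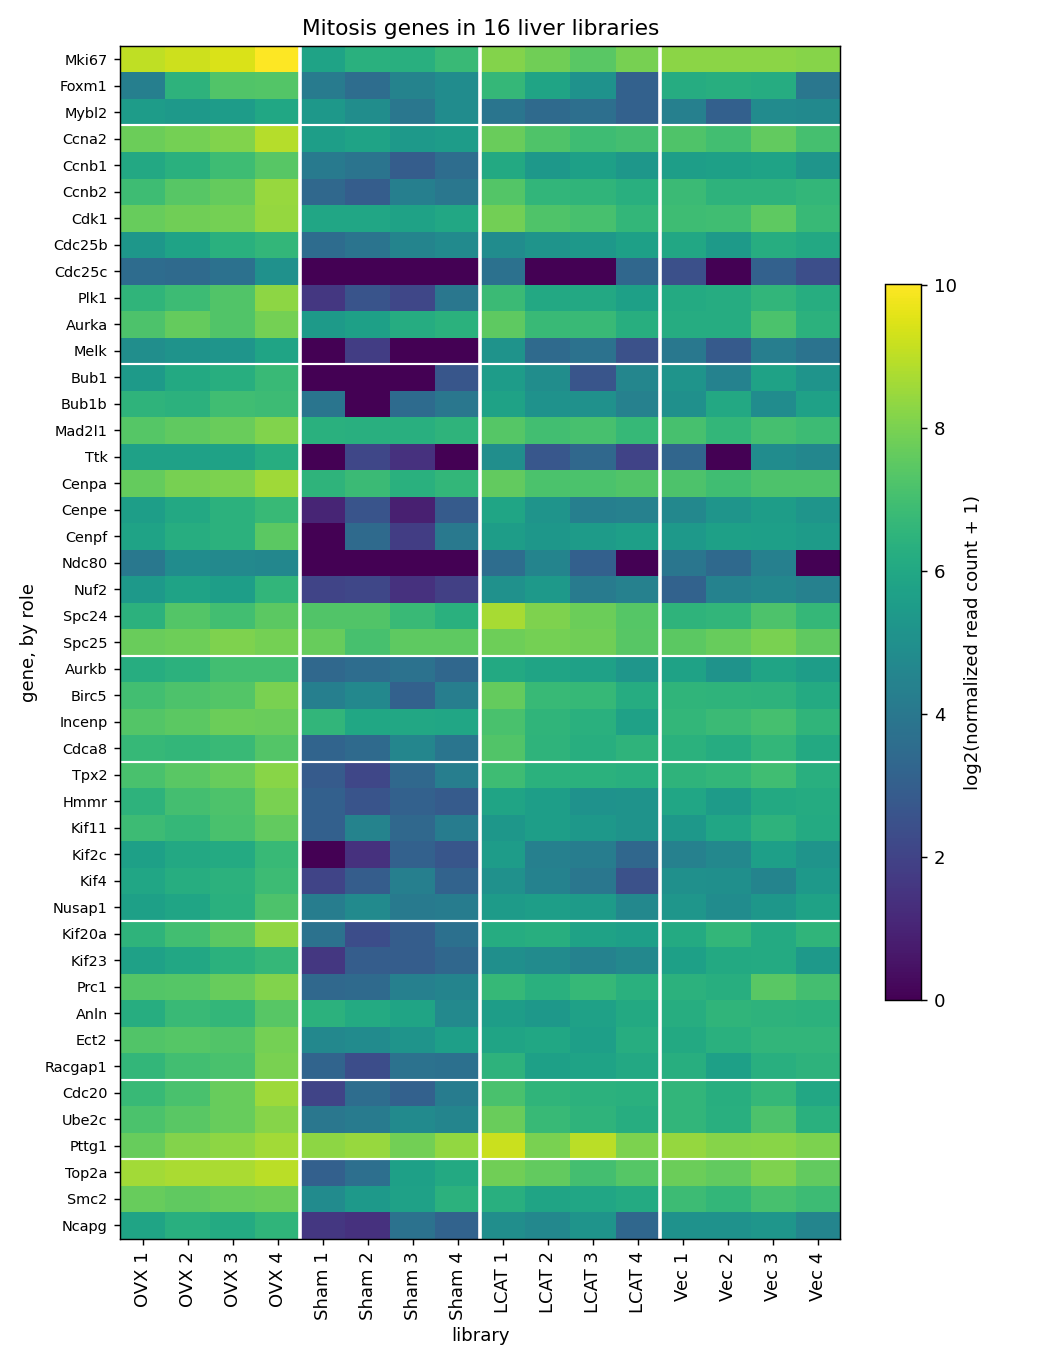
Level of each of the 45 mitosis genes (rows, grouped by role) in each of the 16 libraries (columns), as log2(normalized read count + 1) on the colour scale at the right. The Sham columns are the darkest in most rows, while OVX and Sham differ little in shade for Pttg1, Spc24 and Spc25; dark cells at 0 in Sham are libraries with no read, among them all 4 for Cdc25c and Ndc80.

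The marker Mki67, which encodes the Ki-67 protein that coats mitotic chromosomes (chr7:135689784-135716361, GRCm38), had 537, 611, 688 and 1031 normalized counts in the OVX libraries, against 54.8, 80.6, 78.3 and 109 in the Sham libraries. The lowest OVX library lay above the highest Sham library, and the log2 fold change was 3.13 (SE 0.25, limma adjusted p = 0.000101). The log2 fold changes of the 2 regulators were smaller. Foxm1, a forkhead activator of G2 and mitosis genes, had 19.1, 88.5, 154 and 158 normalized counts in OVX, against 16.9, 10.9, 21.3 and 28.3 in Sham. OVX library 1 lay within the Sham range, although most other members were already well above Sham in that library. The log2 fold change was 2.08 (SE 0.64, limma adjusted p = 0.0327), and the call was lost without OVX library 2, 3 or 4 or Sham library 1, 2 or 3, with adjusted p of 0.0755, 0.0878, 0.0759, 0.065, 0.088 and 0.0617 in that order. Mybl2, which encodes B-Myb, had 45.8, 41.2, 45.7 and 62.0 normalized counts in OVX, against 39.0, 29.4, 14.5 and 28.3 in Sham. Its groups did not overlap, but the log2 fold change of 0.85 missed the threshold (limma adjusted p = 0.0508), and it passed without Sham library 1 (1.03, adjusted p = 0.0266), by DESeq2 (0.82, adjusted p = 0.0282) and with 5 other settings.

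All 8 cyclins and kinases tested rose in OVX livers, with a median log2 fold change of 2.82. Cdk1, the kinase that drives entry into mitosis, had 205, 226, 241 and 344 normalized counts in OVX, against 59.0, 59.6, 52.8 and 63.0 in Sham (log2 fold change 2.07, SE 0.17, limma adjusted p = 0.000107). Its partner cyclin A2, Ccna2, had 215, 239.7, 275 and 475 in OVX, against 48.5, 54.6, 40.9 and 44.7 in Sham (2.59, SE 0.24, limma adjusted p = 0.000194). In both genes the 4 Sham libraries were close to each other and OVX library 4 was the highest. The B-type cyclins Ccnb1 and Ccnb2 averaged 108 ± 46.1 and 210.0 ± 101 normalized counts in OVX, against 11.7 ± 3.84 and 12.4 ± 5.34 in Sham (SD, n = 4 each), with log2 fold changes of 3.06 and 3.96. The mitotic kinase Plk1 rose by 4.67 and the kinase Melk by 4.84 on the log2 scale, while Aurka, the Aurora kinase of the centrosome, rose by 1.58 and the phosphatase Cdc25b, an activator of Cdk1, by 1.85. Melk had 189 reads over the 4 OVX libraries and 3 over the Sham libraries, a ratio of 56.2 (95% counting interval 18.9 to 275). Cdc25c, the other Cdk1 phosphatase of the list, averaged below the filter of 10 and was not tested. It had 10.7, 10.1, 12.3 and 32.5 normalized counts in OVX and no read in any Sham library, which makes it at least 22.6-fold higher in OVX against a floor of 3 reads over the Sham group.

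Of the 11 kinetochore and checkpoint genes, 10 rose, with the widest spread of any role group: their median was 3.98 and their range 0.14 to 5.47. The 4 subunits of the NDC80 complex, which ties kinetochores to microtubules, differed most among themselves. Ndc80 had 15.3, 28.4, 25.5 and 23.6 normalized counts in OVX and no read in Sham, at least 34.2-fold higher in OVX by the same floor. With Ndc80 at this bound, the medians of this role group and of all members tested were again 3.98 and 3.27. Nuf2, its partner at the microtubule end, had 42.0, 55.4, 47.5 and 95.4 in OVX, against 3.16, 3.36, 1.70 and 2.74 in Sham. The other 2 subunits, which face the chromosome, had levels in Sham that, per kilobase of exon, only Pttg1 exceeded among the members. Spc24 (chr9:21755442-21760303) had 85.6, 161, 127 and 178 in OVX, against 154, 155, 109 and 80.3 in Sham. Its groups overlapped, and the log2 fold change of 0.14 (95% interval -0.51 to 0.79, limma adjusted p = 0.717) did not pass. Spc25 had 212, 221, 269.9 and 241 in OVX, against 204, 138, 185 and 183 in Sham. Its log2 fold change of 0.42 (0.10 to 0.74, limma adjusted p = 0.0436) was the smallest to pass. That call was lost without OVX library 1, 2, 3 or 4 or without Sham library 2 or 3, with adjusted p of 0.0556, 0.074, 0.118, 0.0798, 0.0931 and 0.0746 in that order, and with no filter on low values (adjusted p = 0.0511).

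The spindle checkpoint kinases Bub1 and Ttk had the largest fitted changes of the list: Bub1 averaged 73.4 ± 27.1 normalized counts in OVX, against 1.37 ± 2.74 in Sham, and Ttk 57.9 ± 10.6 in OVX, against 1.26 ± 1.61 in Sham (log2 fold changes 5.47 and 4.97, SD, n = 4). Bub1 had no read in 3 of 4 Sham libraries. The checkpoint protein genes Bub1b and Mad2l1 rose by 3.85 and 1.32 on the log2 scale. Among centromere genes, the motor Cenpe and the large outer protein Cenpf rose by 4.36 and 4.16. Cenpa, the histone variant that marks centromeres, rose by 1.48, with 199, 246, 261 and 385 normalized counts in OVX, against 89.6, 112, 80.0 and 98.6 in Sham. The groups of Cenpa did not overlap.

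All 4 genes of the chromosomal passenger complex rose, with a median of 3.10. This complex corrects wrong attachments of chromosomes and later sits at the midzone. Birc5, which encodes survivin, had 124, 146, 162 and 255 normalized counts in OVX, against 18.97, 24.3, 7.66 and 18.3 in Sham (log2 fold change 3.29, SE 0.36, limma adjusted p = 0.000377). The scaffold Incenp had 159, 177, 219 and 208 in OVX, against 94.8, 62.1, 63.8 and 60.2 in Sham, a smaller change of 1.44 on the log2 scale (SE 0.18, limma adjusted p = 0.000649). Per kilobase of exon, its Sham level was the highest of the 4 genes. The kinase Aurkb and the borealin gene Cdca8 rose by 3.13 and 3.07.

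All 6 spindle and kinesin genes rose, with a median of 3.78. Tpx2, which nucleates spindle microtubules and activates Aurora A, had 138, 173, 206 and 301 normalized counts in OVX, against 6.32, 3.36, 9.36 and 18.3 in Sham (log2 fold change 4.46, SE 0.45, limma adjusted p = 0.000255). Hmmr, whose product binds spindle poles, had 88.6, 128, 146 and 254 in OVX, against 7.38, 5.04, 7.66 and 6.39 in Sham (4.26, SE 0.31, limma adjusted p = 7.49e-05). The highest Sham library of either gene had 18.3 normalized counts. The kinesins Kif11, which pushes spindle poles apart, Kif2c, which shortens microtubules, and Kif4, a chromosome-arm motor, rose by 3.30, 4.34 and 3.24, and the spindle protein gene Nusap1 by 1.95.

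Of the 6 cytokinesis genes, 5 rose, and the group's median was 3.58. Prc1, which bundles the microtubules of the midzone, had 161, 164, 205 and 275 normalized counts in OVX, against 9.48, 10.1, 19.6 and 21.9 in Sham (log2 fold change 3.69, SE 0.31, limma adjusted p = 0.000125). Ect2, the exchange factor that switches on RhoA at the cleavage site, had 157, 165, 155 and 239 in OVX, against 24.2, 27.7, 34.9 and 49.3 in Sham (2.39, SE 0.24, limma adjusted p = 0.000284). The midzone kinesins Kif20a and Kif23, and Racgap1, which forms centralspindlin with Kif23, rose by 4.13, 3.47 and 3.91. Kif23 had 52.0, 62.8, 82.7 and 100.3 normalized counts in OVX, against 2.11, 6.71, 6.81 and 9.13 in Sham. Anln, which encodes the ring scaffold anillin (chr9:22332012-22389188), was the exception. It had 74.9, 110.1, 98.5 and 168 in OVX, against 85.4, 68.8, 56.2 and 25.6 in Sham, where OVX library 1 lay below Sham library 1. Its log2 fold change was 0.99 (95% interval 0.11 to 1.87, limma adjusted p = 0.071), and it passed without Sham library 1 (1.21, adjusted p = 0.0436), by DESeq2 (0.95, adjusted p = 0.0347) and with 3 other settings.

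Among the genes around anaphase, 2 of 3 rose. Ube2c, the conjugating enzyme of the anaphase-promoting complex, had 143, 174, 204 and 294 normalized counts in OVX, against 14.8, 16.8, 26.4 and 22.8 in Sham (log2 fold change 3.26, SE 0.27, limma adjusted p = 0.000113). The activator Cdc20 rose by 4.30. Pttg1, which encodes securin, the protein that keeps separase inactive until anaphase (chr11:43420250-43426251), had 206, 284, 312 and 394 in OVX, against 320.3, 350.0, 234 and 334 in Sham. Its groups overlapped, and its log2 fold change was -0.07 (95% interval -0.54 to 0.40, limma adjusted p = 0.802), with the sign turned to 0.17 when all library totals were set equal and to 0.09 without OVX library 1.

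All 3 genes of chromosome structure rose. Top2a, the topoisomerase that untangles sister chromatids, had 389, 422, 423 and 499.6 normalized counts in OVX, against 7.38, 11.8, 51.1 and 66.6 in Sham (log2 fold change 4.13, SE 0.63, limma adjusted p = 0.00174). Its OVX libraries lay close together, while Sham libraries 1 and 2 were far below Sham libraries 3 and 4. The condensin subunits Smc2 and Ncapg rose by 2.08 and 3.70. Smc2 had 206, 189, 203 and 217 normalized counts in OVX, against 27.4, 41.1, 51.9 and 85.8 in Sham.

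**Figure D2:**
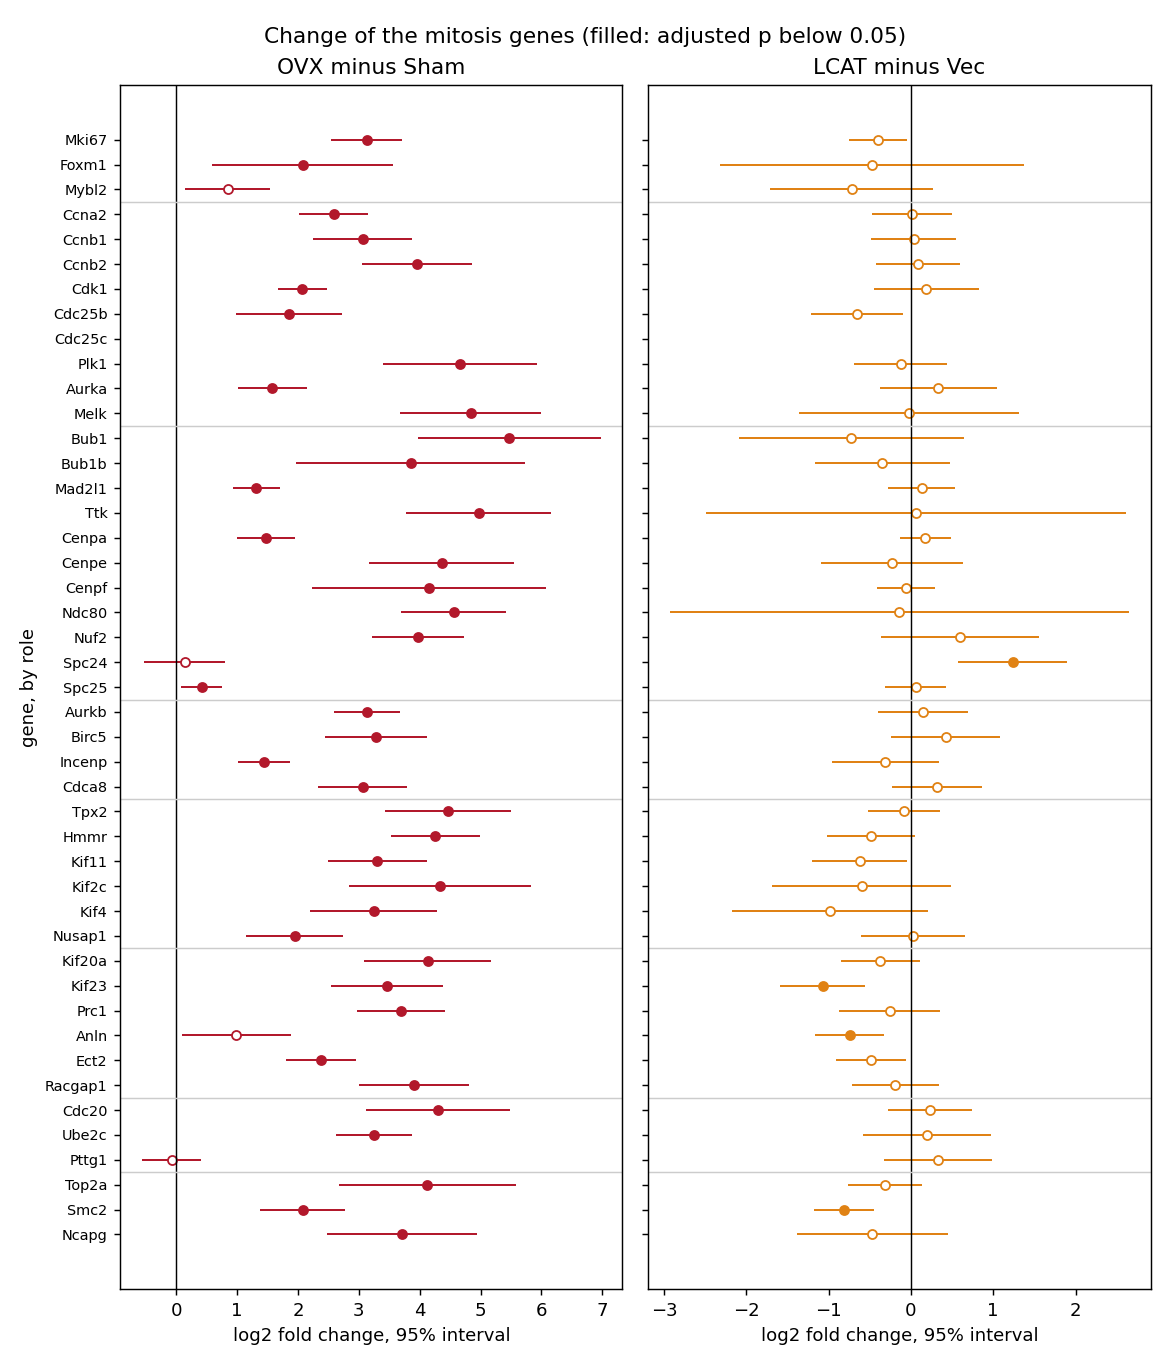
Log2 fold change of each mitosis gene with its 95% interval, OVX minus Sham at the left and LCAT minus Vec at the right, with genes grouped by role and filled points for adjusted p below 0.05. At the left 40 points are filled and all of these lie above 0, with Mybl2, Spc24, Anln and Pttg1 open; at the right only Spc24, Kif23, Anln and Smc2 are filled; Cdc25c was not tested.

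The OVX libraries spread over a wider range than the Sham libraries. The mean over the 45 members of log2(normalized count + 1) was 6.47, 6.78, 6.99 and 7.50 in OVX libraries 1 to 4, against 3.55, 3.78, 3.93 and 4.23 in Sham libraries 1 to 4. OVX library 4 was the highest OVX library for 40 members and OVX library 1 the lowest for 37. The members' normalized counts summed to 5237 to 10207 per OVX library, against 1498 to 1758 per Sham library. Without OVX library 4, 37 members rose and the median was 3.08, and without Sham library 4 it was 40 and 3.33.

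**Figure D3:**
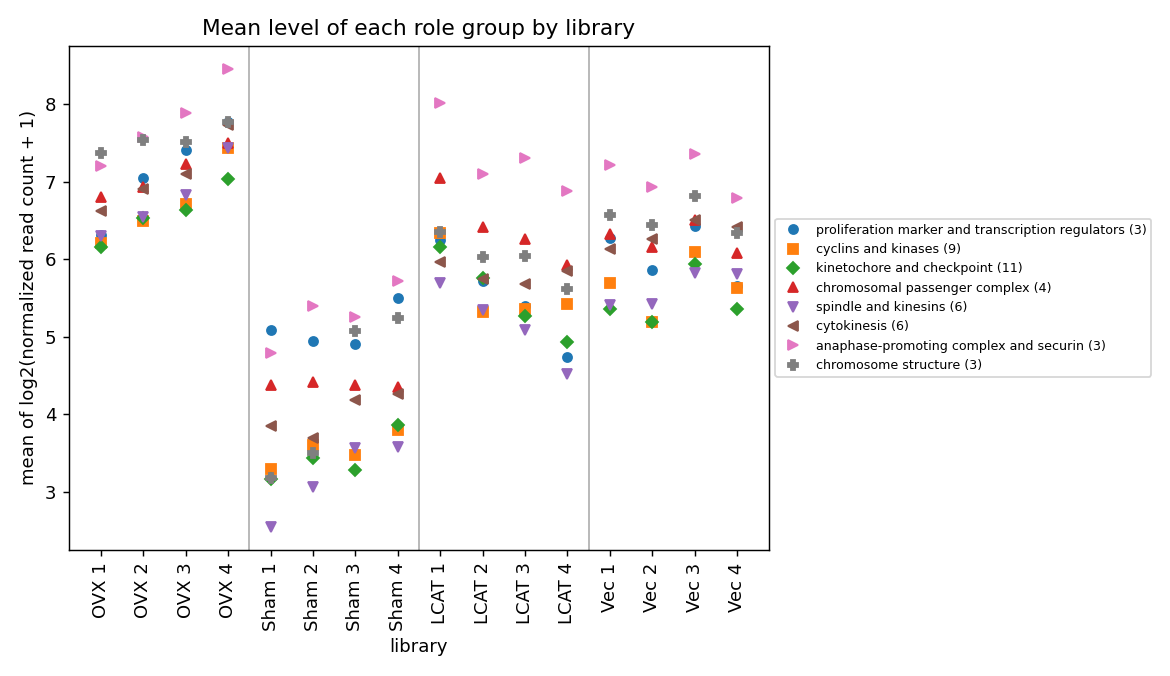
Mean of log2(normalized read count + 1) over the genes of each role group (symbols, number of genes in brackets) in each of the 16 libraries. Every role group is higher in each OVX library than in each Sham library, OVX library 4 is the highest of its group, and LCAT library 1 is the highest of its group for all roles.

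Levels per kilobase of exon, which allow genes to be compared with each other, placed Pttg1 first in every group. It averaged 149 ± 39.0 normalized counts per kilobase in OVX, 155 ± 25.9 in Sham, 201 ± 85.9 in LCAT and 149.7 ± 17.0 in Vec (SD, n = 4). Next in Sham came Spc25 (55.7 ± 8.87) and Spc24 (48.4 ± 14.2), the other members nearest to no change, and then Aurka (24.6 ± 7.15). In OVX the order after Pttg1 was Ccnb2 (137 ± 65.8), Cdc20 (110.5 ± 62.6) and Ube2c (78.3 ± 25.1), which averaged 8.09 ± 3.49, 5.23 ± 3.19 and 7.76 ± 2.06 per kilobase in Sham. The libraries of Spc25 and Spc24 overlapped each other in Sham, and those of Ccnb2 and Cdc20 overlapped those of Pttg1 in OVX. Of the members that did not pass, Pttg1 and Mybl2 held neither TTTGAA nor CCAAT in their RefSeq promoters, and Anln held 2 TTTGAA and no CCAAT. Neither motif was found for Nuf2, Nusap1, Melk, Mad2l1 and Birc5, which rose. The median log2 fold change of OVX against Sham was 3.58 over the 26 members with TTTGAA and 3.06 over the 11 without. It was 3.47 over the 27 with CCAAT and 2.62 over the 10 without, and 3.47 over the 23 with both and 3.17 over the other 14. The order was reversed for at least 2 CCAAT boxes (3.24 over 17, 3.58 over the 20 with fewer) and for the E2F sites (3.06 over the 5 with, 3.58 over the 32 without). These splits were not tested.

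Some of these genes share exon sequence with a neighbour, and the sources used here give no strand setting for the counting. Of the exonic bases of Kif20a 29.3% overlapped Cdc23 on the other strand, of Ube2c 22.8% Tnnc2, of Kif4 15.1% Pdzd11, of Ncapg 13.4% Lcorl, of Cdc25c 12.7% Gm3550, of Ccna2 12.5% Exosc9 and of Prc1 11.1% Rccd1. Without strand, reads from such a stretch cannot be told apart between the 2 genes, and how many reads fell there was not measured, so the levels of these members are uncertain. For the other members the shared part was at most 7.09%.

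Further genes of the cell cycle, outside the 45, are set beside the 19% of all genes tested that rose in OVX livers and the 20.6% that fell. Of 47 other mitosis genes tested, 40 rose (median log2 fold change 2.30). Among them were the mitotic kinase gene Pbk (94.2 ± 11.2 normalized counts in OVX, 5.44 ± 2.14 in Sham, limma adjusted p = 7.37e-05), the centromere gene Cenpm (107 ± 24.2 in OVX, 11.3 ± 3.73 in Sham, adjusted p = 0.000155) and the midbody kinesin gene Kif14, at least 34.2-fold higher in OVX with no read in Sham. Pbk and Kif14 passed the filter of 10 only through OVX. Of 34 genes of G1 and S phase, 27 rose, with a median of 1.16. Examples were the ribonucleotide reductase gene Rrm1 (395 ± 14.1 normalized counts in OVX, 166 ± 19.4 in Sham), the replication factor gene Cdc45 (84.8 ± 18.6 in OVX, 11.9 ± 2.002 in Sham) and the helicase gene Mcm2 (489 ± 66.1 in OVX, 169.5 ± 20.1 in Sham), with log2 fold changes of 1.25, 2.72 and 1.52. Of 10 housekeeping genes, 2 fell, close to the share of all genes.

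The 24 genes of the DREAM complex and of cell cycle inhibitors gave mixed values: 9 rose, 3 fell, and the median was 0.17, beside the same 19% and 20.6% of all genes. Those that fell were Cdkn1a, which encodes the cyclin-dependent kinase inhibitor p21 (1899 ± 478 normalized counts in OVX, 6057 ± 1943 in Sham, log2 fold change -1.64, limma adjusted p = 0.00221), the antiproliferative gene Btg2 (-0.65) and Wee1, the kinase that restrains Cdk1 (-0.98). Those that rose were the inhibitor genes Cdkn2a (1.58) and Cdkn2b (1.39), the Cdk1-restraining kinase gene Pkmyt1 (1.26), Ccng1 (0.74), Trp53 (1.55), and the genes of DREAM subunits Rbl1 (1.82), Tfdp1 (1.01), Lin9 (0.55) and Lin54 (0.27).

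Markers of cell types are given for the same comparison, again beside 19% of all genes higher and 20.6% lower. Of 14 hepatocyte markers 5 fell, and they summed to 3318470 to 3810530 normalized counts per OVX library and 3966140 to 5318330 per Sham library. Of 10 stellate cell markers 6 rose and 2 fell (summed 9326 to 13923 in OVX, 7469 to 7826 in Sham, or 6865 to 8851 in OVX and 6498 to 6881 in Sham without Col3a1). Of 7 cholangiocyte markers tested 3 rose and 1 fell (36174 to 104021 in OVX, 15736 to 22195 in Sham, mostly Spp1), and of 7 oncofetal tumour markers 5 rose (12651 to 28121 in OVX, 8575 to 10785 in Sham). Lymphocyte markers were few: both T cell markers tested rose (9 in the table, summed 68.0 to 100.3 in OVX and 4.21 to 57.5 in Sham, with Cd5 at 0 in all Sham libraries), as did both B and plasma cell markers tested (8 in the table, 154 to 185 in OVX, 17.9 to 58.4 in Sham). The others averaged below the filter of 10. Cd4, Lck and Cd79b passed that filter only through OVX, averaging 18.3, 23.6 and 27.4 there, against 3.69, 3.14 and 7.76 in Sham. For these genes the direction was largely set by the filter. The erythroid marker Klf1, called lower, passed the filter only through Sham, averaging 8.59 in OVX, against 26.7 in Sham. Of 12 Kupffer cell and macrophage markers 1 rose and 3 fell (16826 to 20489 in OVX, 14185 to 14632 in Sham). The 1 that rose was Mpeg1, and the other 11 summed to 6809.8 to 9443 in OVX and 8798 to 9393 in Sham. Of 10 endothelial markers 4 fell (4051 to 4254 in OVX, 5119 to 5513 in Sham), of 6 neutrophil markers 2 rose and 1 fell (281 to 395 in OVX, 326 to 397 in Sham), and of 8 erythroid markers 4 fell (4877 to 6644 in OVX, 5651 to 24344 in Sham). The part of any of these cells in the rise of the mitosis genes was not tested.

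Under LCAT overexpression few members passed the test. Of the 44 tested, 1 rose in LCAT livers, 3 fell and 40 did not pass, where 20.2% of all 13095 genes tested rose and 20.5% fell (limma, adjusted p below 0.05). The median log2 fold change was -0.13, against 0.0045 over all genes tested, and 18 values were above 0 and 26 below, or 9 above 0 when all library totals were set equal. Every LCAT library was above every Vec library for 1 member (Spc24) and below for 4 (Kif23, Smc2, Anln and Mki67), against 20.2% and 20.3% of all genes tested. With libraries 1 and 4 alone, a fit with little power, no member passed by limma, and 1 was higher and none lower at an unadjusted p below 0.05. The share of all genes at that unadjusted p was not counted.

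The 1 member that rose was Spc24, which had not passed after ovariectomy. It had 417, 271, 216 and 165 normalized counts in LCAT, against 90.4, 95.1, 147 and 101 in Vec. LCAT library 1 was far above the others, the groups did not overlap, and the log2 fold change was 1.24 (SE 0.28, limma adjusted p = 0.00969). Its partner Spc25 had 221, 242, 226 and 168 in LCAT, against 178, 204, 255 and 189 in Vec, with overlapping groups and a log2 fold change of 0.06 (95% interval -0.30 to 0.41), or -0.13 with equal library totals.

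The 3 members that fell were 2 cytokinesis genes and a condensin. Kif23 (chr9:61915905-61946774) had 31.1, 27.5, 20.9 and 24.7 normalized counts in LCAT, against 50.01, 67.1, 68.0 and 41.1 in Vec (log2 fold change -1.07, SE 0.22, limma adjusted p = 0.00568). Smc2 (chr4:52439243-52488260) had 77.8, 56.1, 60.5 and 68.0 in LCAT, against 115, 97.6, 136 and 114 in Vec (-0.81, SE 0.15, limma adjusted p = 0.00406). Anln had 46.7, 39.6, 52.2 and 66.4 in LCAT, against 74.6, 92.7, 87.8 and 86.5 in Vec (-0.75, SE 0.18, limma adjusted p = 0.0113), and missed the threshold with all 16 libraries in 1 fit (adjusted p = 0.0637). None of these 3 genes had overlapping groups. Mki67 had 285, 228, 172 and 248.8 in LCAT, against 311, 304, 307 and 295 in Vec, also without overlap, and missed the threshold (-0.40, limma adjusted p = 0.0586).

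**Figure D4:**
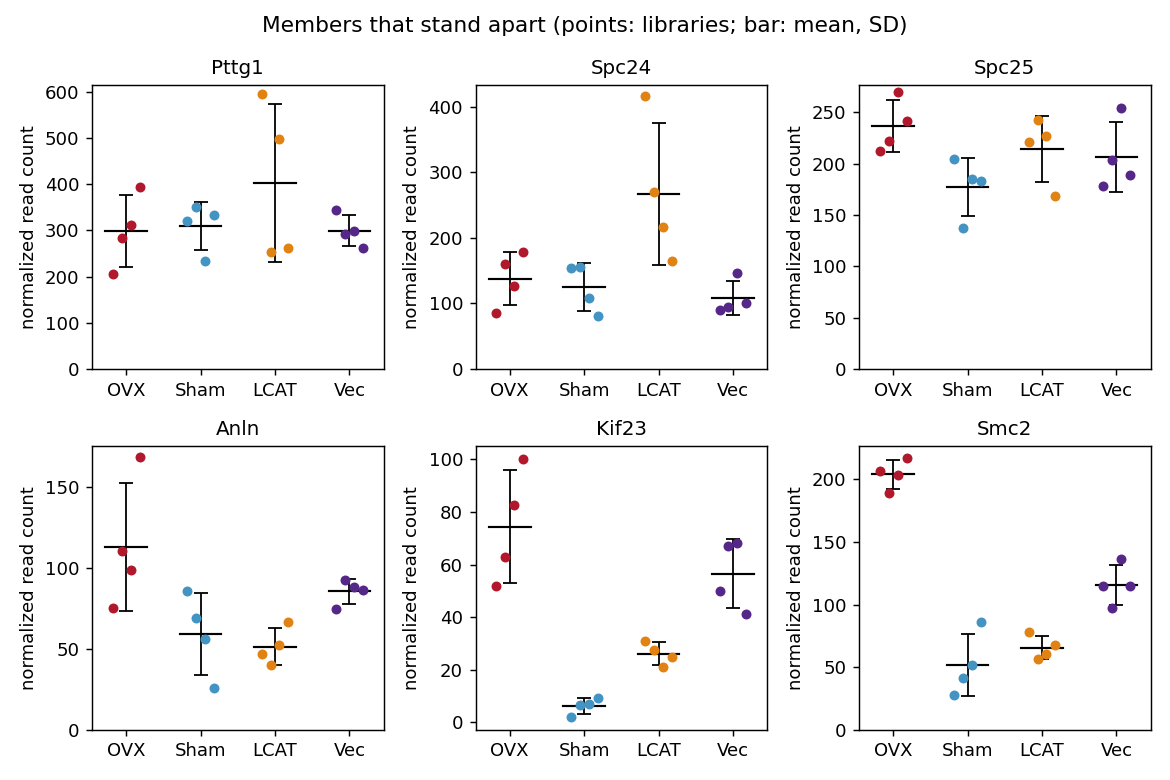
Normalized read counts of 6 mitosis genes that stand apart from the rest, in OVX, Sham, LCAT and Vec livers; points are libraries, the long bar is the mean and the short bars are ± 1 SD. OVX and Sham overlap for Pttg1, Spc24 and Anln and lie close together without overlap for Spc25, Spc24 is highest in LCAT, and Anln, Kif23 and Smc2 lie lower in every LCAT library than in any Vec library.

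By role, the values in LCAT livers lay on both sides of 0. All 6 cytokinesis genes had values below 0, with a median of -0.43 and 2 passed, and so did the 3 genes of chromosome structure (median -0.47, 1 passed) and 5 of the 6 spindle and kinesin genes (median -0.54). Cyclins and kinases had a median of 0.02 and kinetochore and checkpoint genes of 0.06, and both were below 0 (-0.16 and -0.13) with equal library totals. The chromosomal passenger complex and the anaphase genes had medians of 0.23 each, or 0.05 each with equal totals. Cdk1 had 236, 151, 136 and 98.9 normalized counts in LCAT, against 120.2, 121, 182 and 107 in Vec, with overlapping groups (log2 fold change 0.19, 95% interval -0.44 to 0.81). Top2a had 226, 194, 127 and 165 in LCAT, against 213, 195, 269.9 and 195 in Vec, again with overlap (-0.31, -0.75 to 0.13). Pttg1 had 596, 254, 499 and 261 in LCAT, against 345, 291, 298 and 263 in Vec, where LCAT libraries 1 and 3 stood above all others (0.33, -0.32 to 0.98). Foxm1 had 101, 57.2, 33.4 and 7.73 in LCAT, against 71.9, 76.8, 72.4 and 14.9 in Vec, with the lowest value of each group in library 4 (-0.47, -2.31 to 1.37). Mybl2 had 14.0, 9.91, 11.48 and 7.73 in LCAT, against 19.3, 7.32, 27.4 and 26.2 in Vec (-0.72, -1.70 to 0.26). These intervals do not show that the groups were alike.

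LCAT library 1 was the highest LCAT library for 34 members and library 4 the lowest for 26, and the mean of log2(normalized count + 1) over the 45 members was 6.33, 5.78, 5.60 and 5.35 in LCAT libraries 1 to 4, against 5.89, 5.70, 6.27 and 5.86 in Vec libraries 1 to 4. Summed over the members, LCAT libraries held 2988 to 5284 normalized counts and Vec libraries 3517 to 4518. The number of members that fell was 6 without LCAT library 1, 6 without LCAT library 4, 5 without Vec library 1 and 5 without Vec library 2. Of all genes, 2965, 3482, 1986 and 1954 fell in these fits, in that order. Spc24, Kif23, Smc2 and Anln passed in each of these fits. Without LCAT library 1 the members gained were Mki67, Hmmr and Kif4 (adjusted p = 0.0142, 0.0492 and 0.0467), and without LCAT library 4 they were Mki67, Ect2 and Cdc25b (0.049, 0.0253 and 0.0211). Without Vec library 1 they were Ect2 and Kif11 (0.0431 and 0.0201), and without Vec library 2 Cdc25b and Mybl2 (0.033 and 0.0303).

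**Figure D5:**
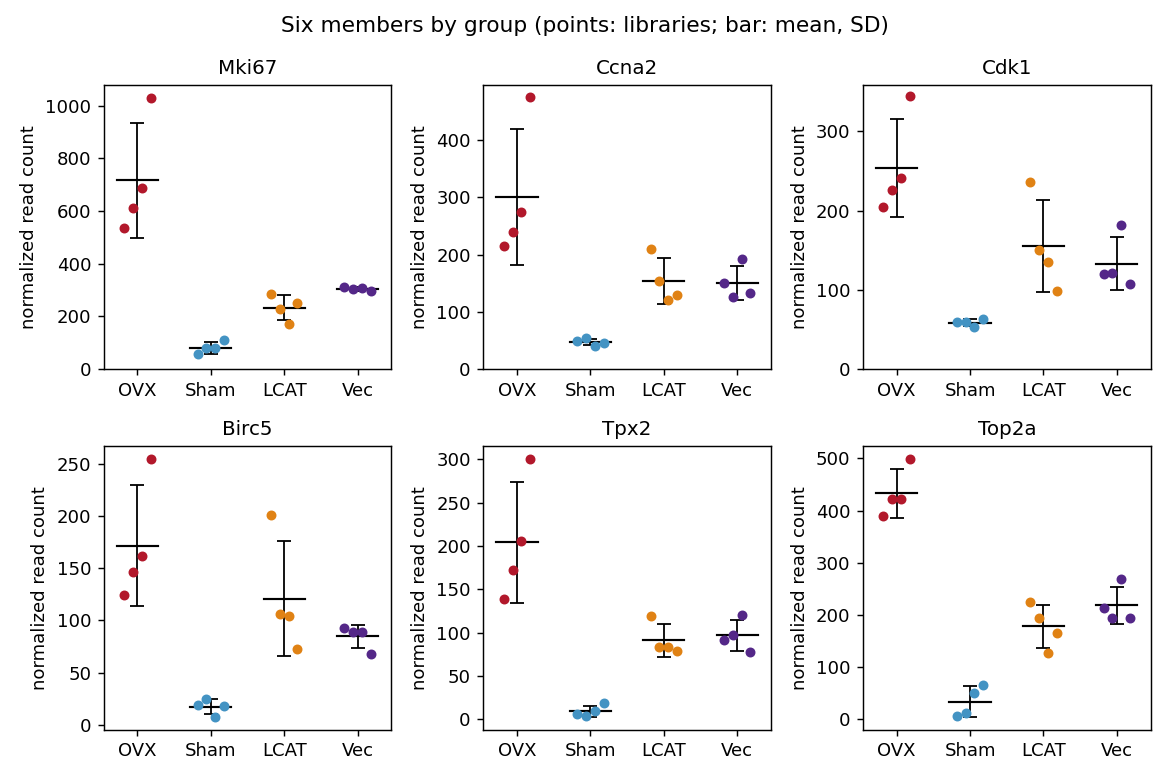
Normalized read counts of 6 mitosis genes in OVX, Sham, LCAT and Vec livers; points are libraries, the long bar is the mean and the short bars are ± 1 SD. In each panel all OVX libraries lie above all Sham libraries, while the means of LCAT and Vec lie between those of OVX and Sham, and the 2 groups overlap each other in all panels but Mki67.

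The other lists are set beside the 20.2% of all genes tested that rose in LCAT livers and the 20.5% that fell. Of 45 other mitosis genes tested 2 rose and 5 fell (median -0.16). Ccnf, the cyclin F gene, rose (315 ± 25.9 normalized counts in LCAT, 153 ± 21.2 in Vec, limma adjusted p = 0.000379), and Gtse1 (73.3 ± 9.92 in LCAT, 128 ± 15.2 in Vec, adjusted p = 0.00355) and the centriole gene Stil (9.37 ± 2.25 in LCAT, 24.1 ± 5.66 in Vec, adjusted p = 0.00918) fell. Stil passed the filter of 10 only through Vec. Of 34 genes of G1 and S phase 7 rose and 1 fell (median 0.21, or 0.02 with equal totals, where 3 rose and 3 fell), so the count of those that rose was near the share of all genes. The replication factor gene Mcm10 rose to 458 ± 96.7 in LCAT, against 90.7 ± 13.3 in Vec, and the thymidine kinase gene Tk1 and the sliding clamp gene Pcna rose by 0.90 and 0.48 on the log2 scale. Of the 24 DREAM and inhibitor genes 3 rose and 6 fell (median -0.11), beside the same shares of all genes. Btg2, Cdkn1a, Cdkn2a, Ccng1, Rbl1 and Cdkn2b fell by 2.27, 1.40, 2.04, 0.75, 0.94 and 0.78 on the log2 scale, and Rbbp4, Cdkn1c and Lin37 rose by 0.66, 1.25 and 0.59. Cdkn1a averaged 1554 ± 128 normalized counts in LCAT, against 4084 ± 163 in Vec. Of 10 housekeeping genes 1 rose and 1 fell.

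Cell type markers in the vector experiment are likewise given beside 20.2% of all genes higher and 20.5% lower. Of 12 Kupffer cell and macrophage markers 10 rose and 2 fell (summed 10832 to 14372 normalized counts in LCAT, 12741 to 14580 in Vec). Mpeg1 was 1 of the 2 that fell, and the other 11 summed to 7233 to 8169 in LCAT and 3223 to 3633 in Vec. Marco and Timd4, among the 10 that rose, passed the filter of 10 only through LCAT. They averaged 191 and 49.9 there, against 2.76 and 3.01 in Vec, so their direction was largely set by the filter. Of 10 endothelial markers 7 rose and 2 fell (2963 to 5532 in LCAT, 2732 to 3330 in Vec), and of 8 cholangiocyte markers 5 rose and 1 fell (23103 to 30810 in LCAT, 68261 to 85625 in Vec, mostly Spp1, without which the sums were 1296 to 2077 in LCAT and 848 to 942 in Vec, with Cftr at 0 in all Vec libraries). Of 10 stellate cell markers 5 rose and 1 fell (9183 to 11925 in LCAT, 9532 to 9967 in Vec). Of 14 hepatocyte markers 4 rose and 2 fell (3069720 to 4132160 in LCAT, 3445070 to 3719380 in Vec), and of 7 oncofetal tumour markers 1 rose and 3 fell (5894 to 13472 in LCAT, 9884 to 12640 in Vec). Of 7 erythroid markers 2 rose and 5 fell (4494 to 7792 in LCAT, 13290 to 14420 in Vec, with Slc4a1 at 0 in all LCAT libraries), and of 3 neutrophil markers 2 rose (119.8 to 170.1 in LCAT, 51.5 to 113 in Vec, with Retnlg and Ltf at 0 in all LCAT libraries). Among these neutrophil markers, S100a8 passed the filter only through LCAT, averaging 26.6 there, against 3.69 in Vec. Of 3 T cell markers tested none passed by limma, with 1 higher at an unadjusted p below 0.05, 1 called higher by edgeR and 2 by DESeq2. The T cell markers summed to 69.5 to 198 in LCAT and 29.3 to 51.5 in Vec, with Cd5 at 0 in all Vec libraries, and 1 of 3 B and plasma cell markers tested rose (137 to 206 in LCAT, 26.8 to 42.8 in Vec, with Blk at 0 in both groups and Pax5 in Vec). The part of these cells in the values of the mitosis genes was not tested.

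Across the 4 groups, the summed level of the 45 members was highest in OVX, lowest in Sham and between these in LCAT and Vec, which overlapped. The lowest OVX library (5237) lay just under the highest LCAT library (5284), and the highest Sham library (1758) lay under the lowest LCAT library (2988). The surgery and vector experiments had no group in common and the sources used here do not say how far they were run alike, so a difference between the experiments and a difference in treatment cannot be told apart.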

How the data were processed

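Polyadenylated RNA of mouse liver was made into libraries from TRIzol extracts by a protocol of BGI, per the labels' protocols, and the submitters' processing notes name FastQC, HISAT2, SAMtools, StringTie and the build mm10. No source used here gives their settings or the counting tool. The table, as deposited, held 1 value per gene in 16 libraries, best called a signal: the authors' read counts, scaled by a single size factor in each library. Multiplied back, all values were whole reads within 0.01 read, and the size factors were those that the median-of-ratios method gives over the 16 libraries. Such scaling does not show a change in total RNA per cell.

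OVX was compared with Sham and LCAT with Vec, each on its own 8 libraries, with limma 3.58.1 (R 4.3.3, trended and robust prior) on log2(value + 1), for genes averaging at least 10. Fold changes on this scale understate the change of low genes. Adjusted p-values are Benjamini-Hochberg values over all genes tested, with a threshold of 0.05. The fit was also run on simulated counts of independent libraries with a single fixed spread for all genes. That run cannot show how the fit behaves where libraries depend on each other or vary more. The recovered reads were tested with edgeR 4.0.16 and with DESeq2 1.42.0, which left 13 adjusted p-values in OVX and 24 in LCAT missing. For Lcat, a two-sided exact permutation test of its log2 values gave p = 0.0286 in each comparison, the smallest that 4 against 4 libraries allow. Floors are 3 reads over a group, and intervals and floors cover counting error only.

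Coordinates, exon lengths and overlaps came from GENCODE M21 (GRCm38), which held all 45 members, and promoters from RefSeq (GRCm38.p6). Proteins were not used here. The members and the 14 lists (219 entries, 213 in the table, 4 found under an older name: other mitosis genes, G1 and S phase genes, DREAM and inhibitor genes, housekeeping genes and 10 marker lists) were chosen with earlier results of these data known. Per-library values in OVX and Sham are given for Mki67, for the 2 members of each role with the highest mean count, and for members in the minority of a comparison. They are also given for Ndc80 and Nuf2, which were chosen after their values were seen. In LCAT and Vec, per-library values are given for only some of these members. Of other lists the text names at most 3 called members with the smallest p, and all called inhibitors. Some markers are also named for passing the filter through a single group, for lack of reads or for their part in a summed level. Values of further genes are marked as chosen after they were seen.

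The fits were repeated with a pseudocount of 0.5 or 5, without the filter, with a minimum mean of 50, with equal library totals, with TMM, with all 16 libraries together, with the replicate number as a block, with arrayWeights, without the trend, with a second threshold on the fold change, with libraries 1 and 4 alone, and without each library in turn.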

Additional observations from a re-analysis of the deposited data

Results flagged for a closer look

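In 180 sets of 4 libraries (45 members in 4 groups), 11 had 1 library far from the other 3 by the gap between it and its nearest neighbour relative to the range of the 4, where chance alone flags about 1 in 20 sets. In OVX, library 4 stood above the others for Cdc25c (32.5 normalized counts), Ttk (73.8) and Ect2 (239). In Sham, library 2 was high for Melk (2.52, the only library of the group with reads) and Nusap1 (26.9), library 4 for Bub1 (5.48, again the only one with reads) and library 1 for Incenp (94.8). In LCAT, library 1 was high for Tpx2 (119.8). In Vec, library 4 was low for Foxm1 (14.9) and Birc5 (68.1), and library 2 for Cenpa (121). The Foxm1 values of the other 3 Vec libraries were 71.9, 76.8 and 72.4.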

How the results depend on the processing

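In OVX against Sham, 37 to 41 members were higher and none lower when 1 library was left out, and 2484 genes higher and 2686 lower became 1735 to 3220 and 1863 to 3308. With libraries 1 and 4 alone, a fit with little power, 0 members and 0 genes in either direction passed, against 38 members higher at an unadjusted p below 0.05. A second threshold, a log2 fold change of 1 or more, left 1000 genes higher and 458 lower. With equal library totals, 4454 genes were higher and 1208 lower (78.7% of calls higher, against 48.0%), the median of all genes moved to 0.24 and that of the members to 3.503. In LCAT against Vec, where 1 member was higher and 3 lower, leaving out 1 library gave 1 higher and 3 to 6 lower, with 1928 to 3346 genes higher and 1954 to 3482 lower, and without LCAT library 4 the members' median was 0.0020. Members lower numbered 8 with equal totals (all genes 1794 higher and 3969 lower, 31.1% of calls higher against 49.7%, with medians of -0.18 over all genes and -0.30 over the members), 7 with arrayWeights (4064 genes higher and 4164 lower), 5 by DESeq2 and 1 with that second threshold (898 and 866 genes). With libraries 1 and 4 alone, 0 members were higher and 0 lower, with 1 gene higher and 2 lower. The second threshold can only remove calls, and for the other settings the cause was not tested.

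Signs turned for genes that had not passed in that comparison. Leaving out 1 library in turn, the log2 fold change in OVX against Sham ranged from -0.051 (without Sham library 4) to 0.35 for Spc24 and from -0.22 to 0.095 (without OVX library 1) for Pttg1, which came to 0.17 with equal totals. In LCAT against Vec it ranged from -1.03 to 0.22 (without LCAT library 4) for Foxm1, from -0.15 (without LCAT library 1) to 0.14 for Ccna2, from -0.037 to 0.38 for Cdk1 and from -0.11 to 0.39 for Ube2c (both negative without LCAT library 1), from -0.0091 (without Vec library 1) to 0.17 for Spc25, and from -0.22 to 0.026 (without Vec library 3) for Tpx2. Ccna2 was also negative without Vec library 2 (-0.067) or 4 (-0.040), and Spc25 without LCAT library 2 (-0.0058). With equal totals, Ccna2 came to -0.17, Spc25 to -0.13 and Cenpa to -0.010, with arrayWeights Foxm1 to 0.055, and with libraries 1 and 4 alone Tpx2 to 0.20.

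Over all genes tested, libraries of the same number showed little shared deviation (correlations of -0.06 to 0.04 in the surgery experiment and -0.03 to 0.12 in the vector experiment). Libraries of different numbers reached 0.189 and -0.185 in the vector experiment. The members' mean level rose with the library number in both OVX and Sham. These values do not settle whether the numbers pair the libraries. With the replicate number as a block, 39 members were higher in OVX (2052 genes higher, 2287 lower), with the call of Spc25 lost (adjusted p = 0.0614), and 1 was higher and 3 lower in LCAT (2231 and 2327 genes).

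The few reads of many members in Sham limit their fold changes, which for genes without a Sham read are lower bounds.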

Other observations

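Spc24 was not the only cell cycle gene that passed in LCAT livers without passing in OVX livers, and the genes named next were chosen after their values were seen. Mcm10, which helps load replication factors at origins, averaged 458 ± 96.7 normalized counts in LCAT and 90.7 ± 13.3 in Vec (log2 fold change 2.31, limma adjusted p = 4.23e-05), and 110 ± 21.6 in OVX and 85.9 ± 21.6 in Sham (0.37, adjusted p = 0.201; SD, n = 4 each). The cyclin F gene Ccnf averaged 315 ± 25.9 in LCAT and 153 ± 21.2 in Vec (1.04, adjusted p = 0.000379), and 264 ± 32.9 in OVX and 215 ± 74.1 in Sham (0.34, adjusted p = 0.24). Tk1, which encodes a thymidine kinase of S phase, averaged 273 ± 27.0 in LCAT and 146 ± 11.4 in Vec (0.90, adjusted p = 0.000448), and 190.1 ± 24.4 in OVX and 172 ± 38.6 in Sham (0.16, adjusted p = 0.489). Whether the change under LCAT differed from that after ovariectomy was not tested for these genes.

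Ccnd1, the gene of the G1 cyclin D1 and also chosen after its values were seen, averaged 2687 ± 414 normalized counts in OVX and 676 ± 229 in Sham (log2 fold change 2.04, limma adjusted p = 0.000429), and 2236 ± 98.6 in LCAT and 1843 ± 106 in Vec (0.28, adjusted p = 0.0196).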
